A study of Homo sapiens with 17 samples.

Results

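Histone lysine methyltransferase and demethylase mRNAs were followed here by their contact with the ribosome and by their binding to the nuclear and the cytoplasmic poly(A)-binding protein. Members were protein-coding genes whose symbols belong to the KMT2, KMT5, KDM, SETD, SETDB, NSD, EZH, EHMT, SUV39H and SMYD families or are DOT1L or ASH1L. The rule found 51 of 18869 genes, and 49 of the 51 reached a TPM of 5 in each of the 2 immunoprecipitations (IPs). The 2 below that level, KDM4C and KDM5B, are given by their values but are in no count or median. SMYD1 and KDM4E, which the same families hold, had no row among those used.

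The cells were HEK293T, a human embryonic kidney line, carrying a doxycycline-inducible APOBEC1 construct (50 ng/ml for 24 h) and crosslinked with formaldehyde. In RPS2-STAMP the cytidine deaminase APOBEC1 is fused to the ribosomal protein RPS2, so that RNA in contact with the ribosome gains C-to-U edits, and in Control-STAMP APOBEC1 stands alone. RNA was taken without IP (Input) or after IP of PABPN or PABPC. By the paper these fractions come from cytoplasm, whereas the labels give cell pellets sonicated in RIPA buffer and name no fractionation, so no ratio here is read as a split between nucleus and cytoplasm. RPS2-STAMP had 3 libraries in each of these 3 fractions, and Control-STAMP had 3 Input, 3 PABPN IP and 2 PABPC IP libraries, 17 in all. All groups were induced and crosslinked, and all come from the same parent line, so that no value here speaks for another cell type.

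Each gene had 1 normalized EPKM per fraction, the authors' rate of edits per length and depth with the control subtracted and no value below 0, and 1 averaged TPM per fraction. Replicate values and read counts were not used here. The depth behind a value is therefore unknown, whether a difference exceeds the spread between replicates was not tested, and an EPKM of 0 is given as listed at 0. The TPM of all genes summed to 854272 (Input), 995724 (PABPC IP) and 975719 (PABPN IP). EPKM and TPM are both scaled by length, which allows levels of different genes to be set side by side, and EPKM is not divided by the gene's own TPM.

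Histone lysine methylation is written by enzymes with a SET domain, and by DOT1L, which has a different fold. It is erased by the flavin-dependent LSD enzymes and by the JmjC family, which use iron and 2-oxoglutarate. The position of the lysine sets the reading: methylation of H3K4 marks promoters and enhancers, H3K36 and H3K79 mark transcribed gene bodies, and H3K9, H3K27 and H4K20 methylation is tied to silent or compact chromatin. Several of these proteins are very long scaffolds, and their mRNAs are among the longest that cells translate. PABPN coats the poly(A) tail in the nucleus, and PABPC takes its place in the cytoplasm.

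The start codon context is where a ribosome begins on each of these mRNAs, and 5 members at the ends of the comparisons are shown by it. Each sequence is the 25 bases around the annotated start codon of the GENCODE 44 canonical transcript, 5′ to 3′, with the ATG in capitals:
KMT2A: cacggggcgaacATGgcgcacagct
EZH1: gattacagcaagATGgaaataccaa
EZH2: cgaagaataatcATGggccagactg
KMT5A: cagagtggagccATGgctagaggca
KDM1B: ttatttaatgtaATGgcaactccac

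In hg38 the first base of these start codons lies at chr11:118436513 for KMT2A and chr12:123384199 for KMT5A on the plus strand. It lies at chr17:42728941 for EZH1 and chr7:148847298 for EZH2, both on the minus strand, and at chr6:18159896 for KDM1B on the plus strand. All 5 had A or G at the third base before the ATG and G right after it, the bases of a favourable context. Both were found in 33 of the 49 members (67.3%) and in 47.2% of the 9408 protein-coding genes (PCGs) with such a window. In the PABPC IP the median EPKM was 0.0467 over members with both and 0.0431 over the others, so the 2 medians were close.

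Most of these mRNAs had a higher level in the PABPN IP than in the PABPC IP, most of all KMT2A, KMT2D and KMT2C. By the paper, TPM is the sum of an exonic and an intronic part, so incompletely spliced RNA counts toward it. In its total-lysate libraries the paper found more intronic reads with PABPN than with PABPC. The intronic part of the values here was not tested. Median TPM over the 49 members was 12.3 (Input), 49.5 (PABPN IP) and 16.8 (PABPC IP), where the 9607 PCGs with the same filter had 15.8, 38.4 and 28.9. TPM was higher in the PABPN IP than in the PABPC IP for 39 of the 49 members (79.6%) and for 57.6% of PCGs. KMT2A had a TPM of 6.90 (Input), 6.33 (PABPC IP) and 50.4 (PABPN IP), the last 7.96 times the level of the PABPC IP. KMT5A, which places the first methyl group on H4K20, was among the 10 on the other side, with 44.5, 109 and 76.3 in the same order.

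**Figure D1:**
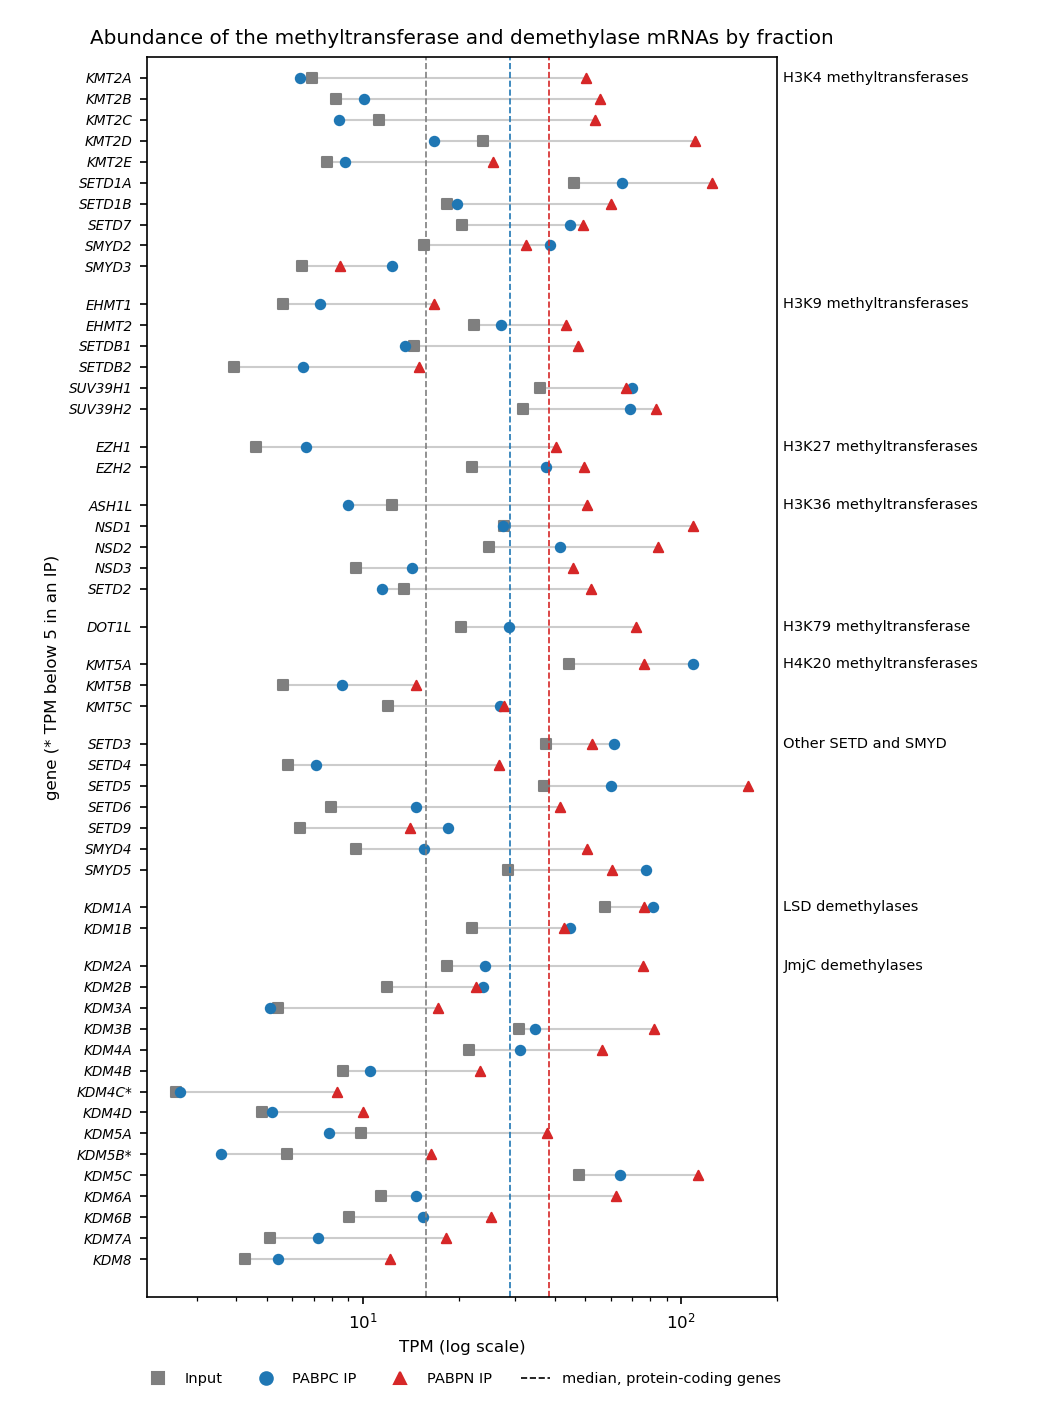
TPM (log scale) of the 51 members in the Input (squares), PABPC IP (circles) and PABPN IP (triangles), grouped by the residue or reaction, 1 averaged value per fraction. Dashed lines are the medians of 9607 PCGs (15.8, 28.9 and 38.4), and the PABPN IP triangle is the rightmost mark for KMT2A to KMT2E and for all 5 H3K36 enzymes.

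For enrichment, log2((TPM + 0.5)/(TPM + 0.5)) was taken between fractions and centred on its median over the PCGs. That median was 1.10 for the PABPN IP over the Input, 0.95 for the PABPC IP over the Input and -0.19 for the PABPC IP over the PABPN IP, and all signs below are relative to it. The 3 ratios share libraries in pairs and are not separate experiments.

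For the PABPN IP over the Input, the question was which mRNAs the nuclear poly(A)-binding protein holds beyond their abundance. The members' median was 0.39, with 23 of 49 above 0.5 and 3 below -0.5 (46.9% and 6.12%), against 23.7% and 20.6% of PCGs. EZH1 was highest at 1.89, followed by KMT2A at 1.68, KMT2B at 1.58, KDM6A at 1.30 and SMYD4 at 1.24. KDM6A (UTX) removes H3K27 methylation and sits in the same complexes as KMT2C and KMT2D, which had 1.11 and 1.09. SMYD3 was lowest at -0.73, then KDM1A (LSD1) at -0.71, SETD3, an actin histidine methyltransferase, at -0.63, KMT5A at -0.33 and KDM2B at -0.21. Without centring the counts were 46 above and 0 below, with 84.1% of PCGs above and 0.583% below, and with a minimum TPM of 10 in each IP 14 of 34 members were above 0.5 (41.2%), where 7920 PCGs had 22.6%.

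For the PABPC IP over the Input the members lay on the lower side of the PCG median. Their median was -0.46, with 1 of 49 above 0.5 and 22 below -0.5 (2.04% and 44.9%), where PCGs had 9.02% and 17.4%. The lowest were KMT2D at -1.44, ASH1L at -1.39, KMT2C at -1.34, KDM5A at -1.27 and SETD2 at -1.18. SETD2 is the enzyme for H3K36 trimethylation, and KDM5A removes methyl groups from H3K4. SETD9 was the only member above 0.5, at 0.52, and SMYD5, SMYD2, KMT5A and KMT5C followed at 0.47, 0.34, 0.33 and 0.19. Without centring the median turned to 0.50, and 22 members were above 0.5 and 0 below -0.5, where PCGs had 80.2% and 0.854%.

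Between the IPs the members' median was -0.95, with 4 of 49 above 0.5 and 34 below -0.5 (8.16% and 69.4%), where PCGs had 29.9% and 31.1%. The 4 on the PABPC side were KMT5A and SMYD3 at 0.70, SETD9 at 0.57 and SMYD5 at 0.53. On the PABPN side KMT2A was at -2.71, KMT2D at -2.50, KMT2C at -2.41, EZH1 at -2.33 and ASH1L at -2.24. Without centring 2 members were above 0.5 and 35 below -0.5, where PCGs had 22.7% and 37.2%, so the members' side of the scale stayed with PABPN. With a minimum TPM of 10 in each IP, the centre was taken anew over the 7920 PCGs that reached it. Then 1 of 34 members was above 0.5 and 21 were below -0.5 (2.94% and 61.8%), where PCGs had 28.2% and 29.7%. KMT5A, SETD9 and SMYD5 reach that minimum and were above 0.5 at the first centre, so the count of 1 rests on the new centre as well. With a threshold of 1 none was above and 23 were below, where PCGs had 12.3% and 16.6%.

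By residue, all 5 H3K36 writers (NSD1, NSD2, NSD3, SETD2 and ASH1L) were below -0.5 in the PABPC IP over the PABPN IP (31.1% of all PCGs), with a median of -1.78. Their median coding part was 7692 nt, and most PCGs of such lengths were below -0.5 as well, as given further on. Of the 10 genes grouped as H3K4 writers, KMT2E included, 7 were below -0.5, with a median of -1.35, and SMYD3 was above 0.5. The groups follow lists of names, and the activity of each protein was not examined. The 13 JmjC demethylases had 12 below -0.5 and a median of -0.93, and KDM2B, at 0.26, was the exception. The 6 H3K9 writers had 3 below and a median of -0.72. DOT1L, the H3K79 writer, was at -1.12. The 3 H4K20 writers were spread on both sides, with KMT5A at 0.70, KMT5C at 0.16 and KMT5B at -0.55, and both LSD demethylases were on the PABPC side, KDM1A at 0.29 and KDM1B at 0.25. Among the other SETD and SMYD genes 4 of 7 were below -0.5 and 2 above 0.5.

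Some pairs of related genes lay far apart and others close together, and no count of such pairs was made. EZH1 and EZH2 are the alternative catalytic subunits of PRC2, with coding parts of 2241 and 2253 nt. EZH1 had a TPM of 4.62 (Input), 6.64 (PABPC IP) and 40.4 (PABPN IP), where EZH2 had 22.0, 37.7 and 49.5. The centred ratio of the PABPC IP to the PABPN IP was -2.33 for EZH1 and -0.20 for EZH2, so 2 mRNAs of like coding length lay far apart. SUV39H1 and SUV39H2, which trimethylate H3K9, were at 0.24 and -0.08, and EHMT1 and EHMT2, which mono- and dimethylate it, were at -0.95 and -0.48. SETDB1 was at -1.57 and SETDB2 at -0.96.

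In the KMT2, SETD1, KDM2 to KDM6 and NSD families each gene lay on the PABPN side except KDM2B, at 0.26, whose pair KDM2A was at -1.44. KMT2A and KMT2B were at -2.71 and -2.22, KMT2C and KMT2D at -2.41 and -2.50, and SETD1A and SETD1B at -0.75 and -1.40. KDM3A and KDM3B were at -1.47 and -1.03. KDM4A and KDM4B were at -0.66 and -0.93, and KDM4C, below the TPM minimum, at -1.29. KDM5A and KDM5C were at -2.02 and -0.62, with KDM5B, also below the minimum, at -1.85. KDM6A and KDM6B were at -1.86 and -0.50, and NSD1, NSD2 and NSD3 at -1.78, -0.83 and -1.45.

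The members had a long coding part at the median, a feature that the name rule did not use, though 12 of the 49 had 1500 nt or less. Their median was 3486 nt, with quartiles of 1569 and 4929 nt, and that of PCGs was 1320 nt, with quartiles of 816 and 2087 nt. KMT2D (hg38 chr12:49018975-49060794) was longest, with 16611 nt coding in a transcript of 55 exons, and SETD9 (chr5:56909260-56925532) shortest, with 897 nt in a transcript of 6 exons. KMT2C (chr7:152134922-152436644) had 14733 nt, and KMT2A (chr11:118436456-118526832) 11916 nt. Across the 49 members, Spearman's rho between log2 coding length and the centred ratio was 0.54 for the PABPN IP over the Input, -0.73 for the PABPC IP over the Input and -0.69 between the IPs. Across the 9598 PCGs with a coding length the values were 0.41, -0.66 and -0.62. Genes are not independent replicates, and all points share the same libraries. The length of the gene with its introns went less closely with the ratio between the IPs, at -0.28 in members and -0.31 in PCGs.

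Set beside PCGs of the same class of coding length, the members lay nearer to the background than they did over all lengths. Classes of coding length were chosen after the values were seen. The 12 members of up to 1500 nt had a median ratio between the IPs of 0.20 and 3 of their number below -0.5, against 0.43 and 14.9% for 5531 PCGs. Over 1500 and up to 3000 nt the 10 members had -0.63 and 60.0%, and 2952 PCGs -0.33 and 41.7%. Over 3000 and up to 6000 nt the 20 members had -1.08 and 90.0%, and 939 PCGs -1.06 and 80.9%. Over 6000 nt the 7 members had -2.24 and were all below -0.5, where 176 PCGs had -1.81 and 96.6%. The members' share was thus the higher one in each class, by less than the 69.4% against 31.1% over all lengths. The medians were close in the class with the most members, over 3000 and up to 6000 nt, and differed in the other 3, and the part of length in the members' ratio was not tested further.

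**Figure D2:**
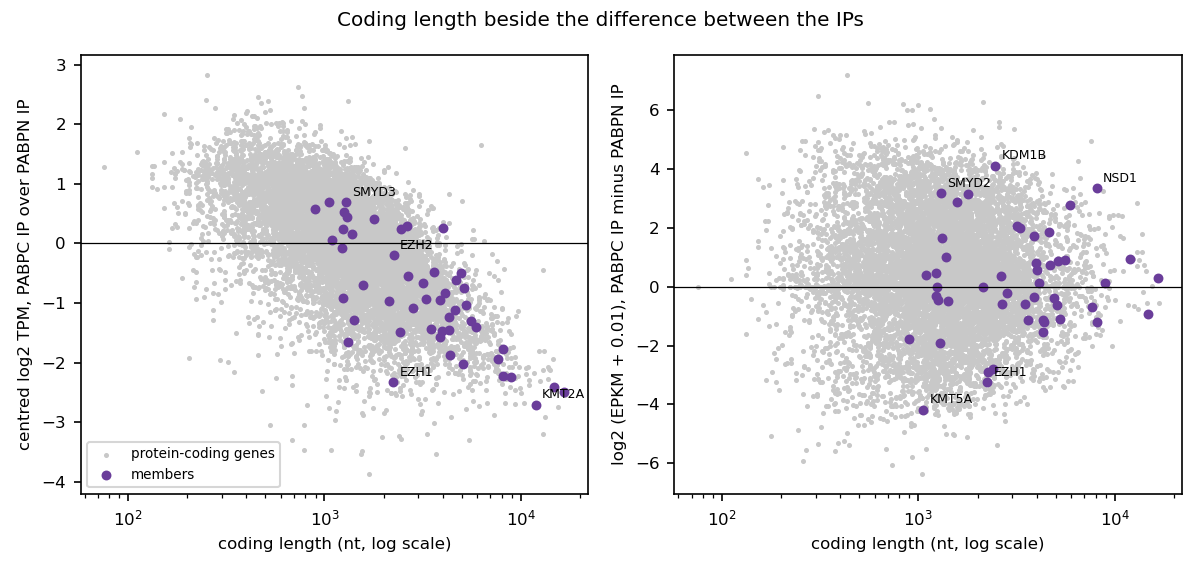
Coding length (nt, log scale) against the centred log2 TPM ratio of the PABPC IP to the PABPN IP (left) and the difference in log2(EPKM + 0.01) between the same IPs (right), with 49 members in purple and PCGs in grey. On the left the members run from 0.57 for SETD9 at 897 nt to -2.50 for KMT2D at 16611 nt, and on the right they lie on both sides of 0 at all lengths.

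Editing was not arranged like abundance. Median EPKM of the members was 0.0147 (Input), 0.0467 (PABPC IP) and 0.0432 (PABPN IP), where PCGs had 0.0273, 0.0501 and 0.0334. Over the Input median, that of the PABPC IP was 3.19 times as high for the members and 1.84 times for PCGs, and that of the PABPN IP 2.95 and 1.22 times. The mean gave lower multiples. Mean EPKM of the members was 0.0275 (Input), 0.0533 (PABPC IP) and 0.0503 (PABPN IP), where PCGs had 0.0634, 0.0719 and 0.0520. The difference of the medians, PABPC IP minus PABPN IP, was 0.00356 for the members and 0.0167 for PCGs. EPKM was higher in the PABPC IP for 24 members and higher in the PABPN IP for 23, with 2 equal, and in PCGs for 56.4% and 37.4%. The members' medians were thus close between the IPs, while single members differed in both directions, and PCGs had the higher median in the PABPC IP. With a minimum TPM of 10 in each IP the difference was 0.0103 for 34 members and 0.0222 for 7920 PCGs, and the medians were 0.0240 and 0.0360 (Input), 0.0716 and 0.0608 (PABPC IP), and 0.0613 and 0.0386 (PABPN IP). The members' PABPC IP median was thus below that of PCGs with the first filter and above it with the stricter one. Per 100 TPM of the same gene and fraction a scale added after the values were seen, the medians were not close: the members had an EPKM of 0.128 (Input), 0.226 (PABPC IP) and 0.0786 (PABPN IP), and PCGs 0.161, 0.138 and 0.0704. Relative to TPM, the PABPC IP was thus the higher of the IPs at both medians.

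**Figure D3:**
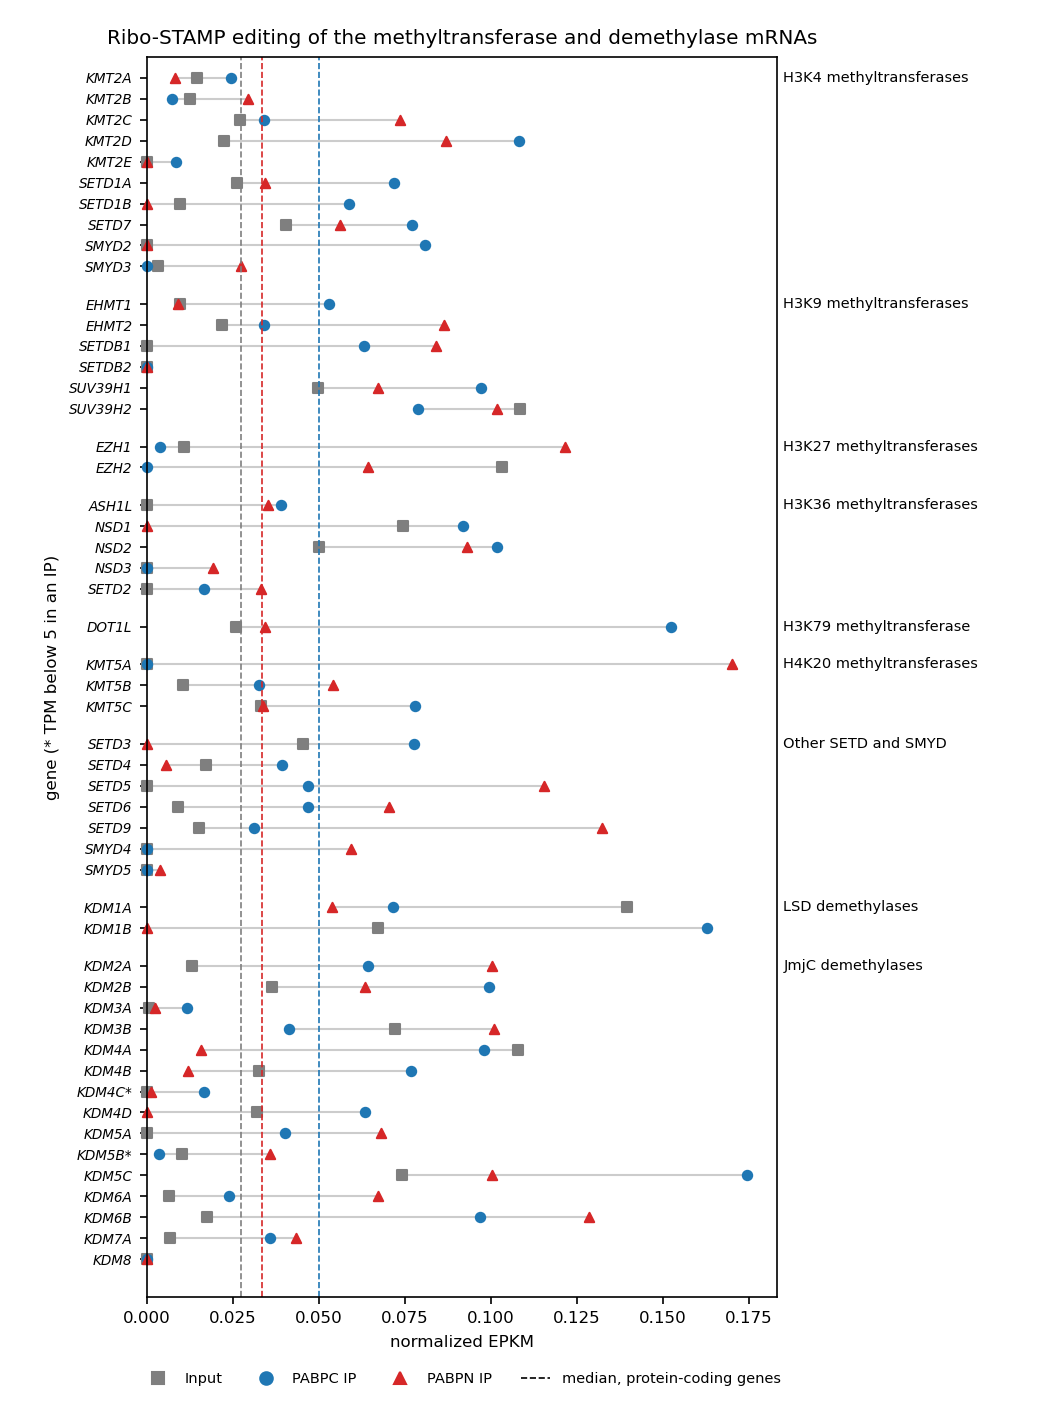
Normalized EPKM of the 51 members in the Input (squares), PABPC IP (circles) and PABPN IP (triangles), grouped by the residue or reaction, 1 value per fraction pooled over replicates. Dashed lines are the PCG medians (0.0273, 0.0501 and 0.0334), KMT5A and KDM1B differ most between the IPs, in opposite directions, and KDM8 and SETDB2 lie at 0 throughout.

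EPKM was above 0 in all 3 fractions for 30 of 49 members (61.2%) and for 50.5% of PCGs. By fraction it was above 0 for 37 members (Input, 75.5%), 41 (PABPC IP, 83.7%) and 40 (PABPN IP, 81.6%), where PCGs had 78.1%, 82.6% and 72.9%. KDM8 and SETDB2 were listed at 0 in every fraction, 4.08% of members and 2.07% of PCGs, with Input TPM of 4.25 and 3.94. The fraction with the highest EPKM was the PABPC IP for 22 members, the PABPN IP for 21 and the Input for 4 (44.9%, 42.9% and 8.16%), against 42.6%, 28.7% and 26.6% of PCGs. The 4 with the highest level in the Input were EZH2, KDM1A, KDM4A and SUV39H2.

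On the log2(EPKM + 0.01) scale 12 members stood 2-fold or more above the PABPN IP level in the PABPC IP and 12 did so the other way, 24.5% each, against 36.3% and 21.1% of PCGs. With a pseudocount of 0.1 in place of 0.01 these counts were 1 and 2 (2.04% and 4.08%), where 865 and 356 of the 9607 PCGs were counted.

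On the PABPC side, KDM1B, which with KDM1A removes methyl groups from H3K4, had an EPKM of 0.0672 (Input) and 0.163 (PABPC IP) and was listed at 0 in the PABPN IP. NSD1, a writer of H3K36 dimethylation, had 0.0744 and 0.0918 and was listed at 0 in the PABPN IP, although its TPM there was 109. SETD3 had 0.0455 and 0.0775 and was listed at 0 in the PABPN IP as well. SMYD2, which also methylates p53, was listed at 0 in the Input and the PABPN IP and had 0.0807 in the PABPC IP. KDM4D, which demethylates H3K9, had 0.0319 and 0.0634 and was at 0 in the PABPN IP. DOT1L had 0.0257, 0.152 and 0.0343 in the Input, PABPC IP and PABPN IP. SETD1B, KDM4A, KDM4B, EHMT1, SETD4 and KMT5C were the others of the 12.

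On the PABPN side, KMT5A was listed at 0 in the Input and the PABPC IP, and its PABPN IP level of 0.170 EPKM was higher than that of 95% of PCGs. Its TPM was highest in the PABPC IP, so abundance and editing of KMT5A pointed to opposite IPs. EZH1 had 0.0107, 0.00386 and 0.121 in the Input, PABPC IP and PABPN IP, and EZH2 had 0.103, 0 and 0.0643, so both PRC2 writers had the higher EPKM in the PABPN IP of the 2 IPs. SMYD4 was above 0 in the PABPN IP alone, at 0.0594, and SMYD3 had 0.00317 (Input), 0 (PABPC IP) and 0.0274 (PABPN IP). SETD9 had 0.0152, 0.0310 and 0.132 in the same order, and KDM6A had 0.00652, 0.0239 and 0.0673. EHMT2, KDM3B, KMT2B, NSD3 and SETD5 were the others of this side. Per 100 TPM, KDM6A, KMT2B and SETD5 were instead higher in the PABPC IP, and the rest of this side stayed higher in the PABPN IP. KDM6A had 0.163 (PABPC IP) and 0.108 (PABPN IP) on that scale, and SETD5 0.0775 and 0.0710.

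The highest EPKM in the Input was that of KDM1A, at 0.139, which was also the member with the highest Input TPM, 57.7. KDM5C was highest in the PABPC IP at 0.174, above 91.8% of PCGs, and KDM1B and DOT1L followed. In the PABPN IP KMT5A was followed by SETD9, KDM6B at 0.129 and EZH1. Across members, Spearman's rho between TPM and EPKM of the same fraction was 0.46 (Input), 0.45 (PABPC IP) and 0.35 (PABPN IP), and across PCGs 0.53, 0.45 and 0.25. Coding length and EPKM had a rho of -0.02 (Input), 0.13 (PABPC IP) and 0.01 (PABPN IP) across members and of -0.22, -0.08 and -0.01 across PCGs. The share of C in the coding part, the base that is edited, was 24.4% at the members' median and 25.4% in PCGs, and its rho with EPKM was 0.11, 0.30 and 0.10 in the Input, PABPC IP and PABPN IP, and -0.12, 0.10 and -0.09 across PCGs.

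The longest H3K4 writers combined a strong lean to PABPN in abundance with editing in both IPs. KMT2D had an EPKM of 0.0223 (Input), 0.108 (PABPC IP) and 0.0871 (PABPN IP). KMT2C had 0.0271, 0.0341 and 0.0735, KMT2B 0.0125, 0.00715 and 0.0293, and KMT2A 0.0147, 0.0245 and 0.00809. The order of the IPs in EPKM thus differed within the 4, with 2 members higher on each side. Taken per 100 TPM, all 4 were instead higher with PABPC. On that scale KMT2D stood at 0.645 (PABPC IP) and 0.0786 (PABPN IP), and KMT2C at 0.404 and 0.137. KMT2A stood at 0.386 and 0.0161, and KMT2B at 0.0710 and 0.0525. In EPKM itself, KMT2E reached 0.00854 with PABPC and was listed at 0 in the other fractions.

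By residue, the H3K4 writers had a median EPKM of 0.0136 (Input), 0.0463 (PABPC IP) and 0.0283 (PABPN IP). SETD1A, which with SETD1B places most H3K4 trimethylation at promoters, had 0.0261, 0.0718 and 0.0343 in the same order, and SETD1B had 0.00961, 0.0586 and 0. SETD7, a monomethyltransferase with many non-histone targets, had 0.0404, 0.0770 and 0.0560. The H3K9 writers had medians of 0.0156, 0.0581 and 0.0756, the higher of the IPs being that of PABPN. Their median TPM was also higher there, at 45.4 against 20.4 in the PABPC IP. Per 100 TPM, SUV39H1, SETDB1 and EHMT1 were higher in the PABPC IP and SUV39H2 and EHMT2 in the PABPN IP, with SETDB2 at 0. In EPKM itself the values were as follows. SUV39H2 had 0.108, 0.0789 and 0.102, and SUV39H1 had 0.0497, 0.0970 and 0.0670. SETDB1 was listed at 0 in the Input and had 0.0631 and 0.0841 in the IPs. EHMT1 (G9a-like protein) and EHMT2 (G9a), which act as a dimer, lay on opposite sides: EHMT1 had 0.0530 (PABPC IP) and 0.00904 (PABPN IP), where EHMT2 had 0.0339 and 0.0862.

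H3K36 writers had a median of 0 in the Input, since ASH1L, NSD3 and SETD2 were listed at 0 there, and of 0.0390 and 0.0330 in the PABPC and PABPN IPs. NSD2 was edited in all fractions, at 0.0499 (Input), 0.102 (PABPC IP) and 0.0932 (PABPN IP), and NSD1 differed from it by its 0 in the PABPN IP. ASH1L had 0.0390 and 0.0351 in the PABPC and PABPN IPs. KMT5B and KMT5C, which add further methyl groups to H4K20 after KMT5A, had 0.0325 and 0.0779 (PABPC IP) and 0.0542 and 0.0336 (PABPN IP), respectively.

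The JmjC demethylases had medians of 0.0175 (Input), 0.0634 (PABPC IP) and 0.0633 (PABPN IP), with a median TPM of 14.6 and 25.3 in these IPs. KDM2A had 0.0131, 0.0641 and 0.100 in this order, and KDM2B, which recruits a variant Polycomb complex to CpG islands, had 0.0363, 0.0993 and 0.0633. KDM3B had 0.0720, 0.0412 and 0.101, and KDM3A was low throughout, with 0.0116 in the PABPC IP as its highest value. KDM4A had 0.108, 0.0981 and 0.0158, and KDM4B 0.0324, 0.0769 and 0.0121, so these H3K9 and H3K36 demethylases were both edited less in the PABPN IP. KDM5C had 0.0743, 0.174 and 0.100, where KDM5A was listed at 0 in the Input and had 0.0402 and 0.0679 in the IPs. KDM6B had 0.0175, 0.0968 and 0.129, above KDM6A in each fraction. Below the TPM minimum, KDM4C had 0, 0.0166 and 0.00124, and KDM5B 0.0102, 0.00354 and 0.0357.

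Partner subunits were read from lists of the complexes. COMPASS partners, each found with 1 or more of the KMT2 and SETD1 enzymes, had 4 of 12 below -0.5 and 3 above 0.5 in the TPM ratio between the IPs (31.1% and 29.9% of PCGs), with a median of 0.08, against -1.35 for the H3K4 writers, and a median coding part of 1722 nt, against 5736 nt. DPY30, a small core subunit, was at 1.31, WDR5 at 0.39, RBBP5 at -0.67 and HCFC1 at -0.92. PRC2 partners had 2 of 10 on each side and a median of 0.10, with SUZ12 at -0.55 and RBBP7 at 0.77. In EPKM 5 of the 10 PRC2 partners stood 2-fold or more above their PABPC IP level in the PABPN IP and 1 the other way, where PCGs had 21.1% and 36.3%, and no test was run on a list of this size. The COMPASS partners had 3 of 12 on the PABPN side and 5 on the PABPC side, LSD1 complex partners 4 and 2 of 11, H3K9 partners 1 and 2 of 10, and DOT1L partners 2 and 1 of 6. EED, which PRC2 needs for activity, had 0.0104 (Input), 0 (PABPC IP) and 0.0599 (PABPN IP), and SUZ12 had 0.0334, 0.0480 and 0.134.

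LSD1 complex partners had 5 of 11 below -0.5 and 0 above 0.5, with a median of -0.22, and H3K9 partners had 6 of 10 below and 2 above, with a median of -0.82. DOT1L partners had 4 of 6 below and 0 above, with a median of -0.63, and AFF4, a scaffold of the super elongation complex, was lowest of these at -1.95. Related enzymes outside the name rule, such as PHF8 and PRDM2, had 5 of 7 below and 0 above, with a median of -0.81, close to the -0.93 of the JmjC demethylases.

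**Figure D4:**
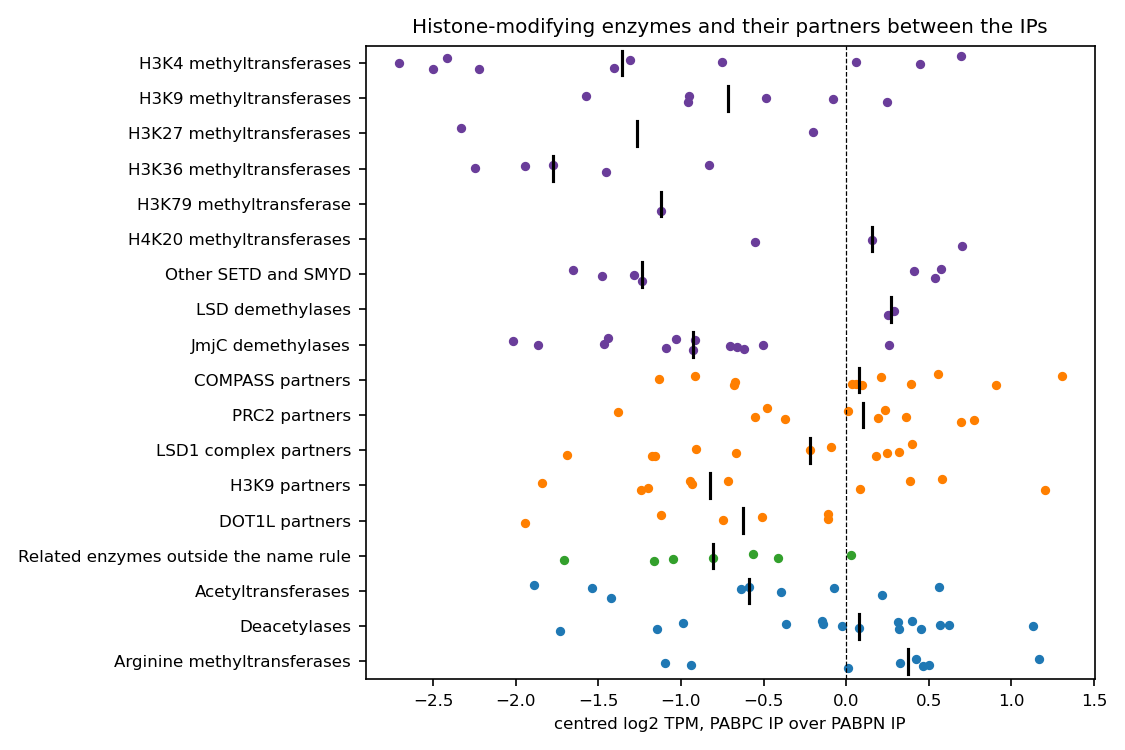
Centred log2 TPM ratio of the PABPC IP to the PABPN IP for each gene that reached a TPM of 5 in each IP, by list, with the list's median as a black bar and vertical jitter for legibility. Medians run from -1.78 for the H3K36 writers to 0.37 for the arginine methyltransferases, and the dashed line at 0 is the PCG median.

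Some members overlap or resemble other genes. SETD6 shares 27.1% of its exonic bases with another gene, CNOT1 being the main one, SUV39H1 21.2%, KDM8 14.5%, SETDB1 12.9% and DOT1L 11.3%. According to the paper, stretches that genes share were taken out of the annotation before reads were counted, so such bases should add to neither gene's TPM. Whether edits were assigned with the same annotation is not given in the sources used here. KMT5A has processed pseudogene copies with rows of their own, and its values are uncertain to the extent that reads were split among them.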

How the data were processed

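RPS2-STAMP and Control-STAMP libraries (17) were made by the submitters from Input, PABPN IP and PABPC IP RNA of HEK293T cells. Per the labels, reads were aligned to hg38 with STAR and counted with featureCounts 2.0.2. The authors' deposited EPKM is a signal of edits with the control subtracted, 1 value per gene and fraction with none below 0. The deposited TPM columns, treated as a score because each value stands on 3 lines, are the authors' means, with exonic and intronic TPM summed. Which libraries each mean covers is not given in the sources used here.

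Here members were found by symbol and biotype, 49 of 51 passing a minimum TPM of 5 in each IP. Ratios used a pseudocount of 0.5 for TPM and 0.01 for EPKM, thresholds of 0.5 (log2) and 2-fold, and centring on PCGs. No test was run, since each gene has 1 value per fraction. Counts and medians stand beside those of PCGs. Calculations were tested on simulated data. Named genes were the 5 highest and 5 lowest members of each comparison, the listed pairs and all members counted by role; further partner genes were chosen after their values were seen. Members and lists were chosen with earlier results of these data known. Positions, coding lengths and start codons came from GENCODE 44 canonical transcripts (hg38), matched by gene identifier for 51 of 51 members. Python 3.11.15, pandas 2.3.3, NumPy 2.4.6, SciPy 1.17.1 and matplotlib 3.10.9 were used. Alternatives covered the TPM filter, pseudocounts, centring, thresholds, the mean in place of the median, and shared exonic bases. For the ratios, each change of the TPM filter also took a new centre over the PCGs it kept.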

Additional observations from a re-analysis of the deposited data

Results flagged for a closer look

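The symbol pattern also matched 8 genes of other biotypes that the comparisons above do not use, and 6 of these had an EPKM above 0, that is, above the subtracted control, in at least 1 fraction. KDM2B-DT, a long non-coding RNA divergent from KDM2B, had its highest EPKM in the PABPN IP, at 0.230, with 0.123 (Input) and 0.0689 (PABPC IP). Its TPM was 1.86 (Input), 3.48 (PABPC IP) and 11.9 (PABPN IP), so it did not reach the minimum of 5 in each IP that the coding members had to reach. KMT2E-AS1 reached 0.0761 in the PABPN IP, KDM5C-IT1 0.0412 in the PABPN IP and KDM4A-AS1 0.00289 in the PABPN IP. KDM7A-DT reached 0.0173 in the PABPC IP, and the pseudogene KMT5AP1 reached 0.0232 in the PABPC IP. The TPM of KMT5AP1 was 0.328 (Input), 1.505 (PABPC IP) and 0.925 (PABPN IP), and KMT5A itself was listed at 0 EPKM in the PABPC IP. The part of shared sequence in these values was not tested.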

How the results depend on the processing

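Of 84 recalculated values, 63 stayed within a bound, 20 moved past it and 1 turned its sign. The bound was 1.5 times the main count, or the 95% rank interval of the median over members. For the difference of medians it was the interval of the members' own differences. These intervals are spreads between genes, which are not replicates, and they are wide. With a minimum TPM of 10 in each IP the difference of medians went from 0.00356 to 0.0103 and the median Input EPKM from 0.0147 to 0.0240, both inside. Without centring, the median ratio of the PABPC IP to the Input turned from -0.46 to 0.50, and that of the PABPN IP to the Input moved to 1.495. The counts without centring were 46 above and 0 below for the PABPN IP to the Input, 22 above and 0 below for the PABPC IP to the Input, and 2 above between the IPs. By construction these shifts are the subtracted PCG medians. With a threshold of 1, they were 11 above and 0 below (PCGs 7.97% and 4.61%), 0 above and 8 below (0.0625% and 3.81%), and 0 above and 23 below between the IPs (12.3% and 16.6%). With a minimum TPM of 10 in each IP, 14 of 34 members were above 0.5 for the PABPN IP to the Input, 0 for the PABPC IP to the Input, and 1 above and 21 below between the IPs (41.2%, 0%, 2.94% and 61.8%), where 7920 PCGs had 22.6%, 7.02%, 28.2% and 29.7%. The centre was taken anew over these PCGs, so filter and centre changed together. At the main centre SETD9, which reaches that minimum, was at 0.52 for the PABPC IP to the Input. Between the IPs SETD9 was at 0.57 and SMYD5 at 0.53 at that centre. The same filter gave a median PABPC IP EPKM of 0.0716 (PCGs 0.0608), and the mean Input EPKM was 0.0275. Without the filter, and with the centre changed accordingly, 2 members were above 0.5 for the PABPC IP to the Input, with no PCG share taken. The genes this added, KDM4C and KDM5B, lay at -0.92 and -1.57 at the main centre, so neither accounts for the higher count. A pseudocount of 0.1 left 1 and 2 members with a 2-fold EPKM difference (2.04% and 4.08%), where 865 and 356 of the 9607 PCGs were counted. The cause was not tested for the TPM filter or the mean. Leaving out SETD6, which shares over 25% of its exonic bases, was chosen after seeing the data, as were all alternatives for counts between the IPs, and SETD6 moved no value past the bound. No paired analysis was possible because the values are pooled over replicates and no test was run. Depth is unknown, so an EPKM listed at 0 cannot be told apart from one too low to be seen.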

Other observations

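Other histone enzymes were set beside the members by the TPM ratio of the PABPC IP to the PABPN IP. Over all PCGs 31.1% were below -0.5 and 29.9% above 0.5. Acetyltransferases had 5 of 9 below -0.5 and 1 above 0.5, with a median of -0.59, and the long CBP/p300 pair was lowest, EP300 at -1.89 and CREBBP at -1.54. HDAC1 and HDAC2 are counted here and among the LSD1 complex partners. Deacetylases had 3 of 15 on each side and a median of 0.08, with SIRT2 at 1.13 and HDAC10 at -1.73. Arginine methyltransferases had 2 of 8 on each side and a median of 0.37, with PRMT1, the main source of asymmetric dimethylarginine, at 1.17. The median coding length was 2496 nt in the acetyltransferases, 1284 nt in the deacetylases and 1708.5 nt in the arginine methyltransferases, against 3963 nt in the JmjC demethylases and 7692 nt in the H3K36 writers.

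Of 12 marker genes, 6 had rows among those used. LIN28B, expected in HEK293T, had a TPM of 37.7 (Input), 88.6 (PABPC IP) and 165 (PABPN IP), NEFM had 8.998, 10.4 and 12.9, and PAX2 had 0.797, 1.28 and 2.41. COL1A1, a fibroblast gene, had a TPM of 1.90 in the Input and 4.42 in the PABPN IP, and an EPKM of 0.566 in the PABPN IP. MALAT1 and NEAT1, long RNAs of the nucleus, had Input TPM of 55.0 and 4.27, PABPC IP TPM of 10.3 and 3.25, and PABPN IP TPM of 208 and 55.8. Their centred ratios between the IPs, -4.08 and -3.72, lay below that of every member.

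SMYD5 and KMT5A had PABPC IP TPM of 77.4 and 109, among the highest of the members, and both were listed at 0 EPKM in the Input and the PABPC IP. KDM4D had the highest EPKM per 100 TPM in the PABPC IP, 1.23, and SETD9 in the PABPN IP, 0.942, where the medians in these IPs were 0.226 and 0.0786 over members and 0.138 and 0.0704 over PCGs.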
